A study of Mus musculus with 27 samples.

Results

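The 10 immediate early genes *Fos*, *Fosb*, *Fosl1*, *Jun*, *Junb*, *Egr1*, *Egr2*, *Nr4a1*, *Ier2*, and *Arc* were followed through the first days of induced neuron (iN) reprogramming of mouse embryonic fibroblasts (MEFs). They were taken by name from a table of 54532 genes, in which each of the 10 names has 1 row. The study asked how the circadian genes *Per1* and *Per2* affect reprogramming, and its bulk RNA-seq covers 27 libraries. On days 0, 2, and 4, each of the genotypes WT, *Per1*-/-, and *Per2*-/- has 3 labelled biological replicates. The knockout alleles are *Per1*tm1Drw and *Per2*tm1Drw on a B6.129 background, and the MEFs came from mid-gestation embryos stripped of head and heart, pooled from 4 embryos per dish and used at passage 1. In the study's protocol, iN cultures received lentiviruses for the BAM reprogramming factors and the transactivator M2rtTA on day -3. The factors are under a doxycycline-inducible promoter. Virus is taken to be present on day 0 as well, although the sample titles do not state it. Day 0 cells were sampled before reprogramming, in medium with serum. Day 2 and day 4 cells had then been in serum-free N3 medium with basic FGF and doxycycline. Induction of the factors, the change of medium, and time therefore moved together and cannot be told apart in any comparison with day 0.

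Immediate early genes are transcribed within minutes of a stimulus such as serum, a growth factor, stress, or neuronal firing, without new protein synthesis. MAP kinases and calcium signals act on factors already bound at their promoters, mainly SRF with its ELK partners at CArG boxes and CREB at cyclic AMP response elements (CRE). Many of their transcripts are short-lived because of AU-rich elements in the 3' UTR. The products are mostly transcription factors. FOS and JUN proteins pair to form AP-1, EGR1 and EGR2 are zinc finger factors, and NR4A1 is an orphan nuclear receptor. In fibroblasts they mark the response to serum, and in neurons they mark activity.

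The promoters of *Fos*, *Egr2*, and *Nr4a1* are shown as 3 members that changed differently after day 0 and hold different motif matches: a CRE core, a CArG box with a CRE core, and an EGR site. RefSeq promoters on GRCm38.p6 were matched for 6 of the 10 genes, with 10 start sites, 5 of them of *Egr2*. Each line holds the 250 bases before a start, with motif matches in capitals, and for *Egr2* 1 of its 5 starts is given.

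*Fos*, chr12:85473640-85473889, plus strand: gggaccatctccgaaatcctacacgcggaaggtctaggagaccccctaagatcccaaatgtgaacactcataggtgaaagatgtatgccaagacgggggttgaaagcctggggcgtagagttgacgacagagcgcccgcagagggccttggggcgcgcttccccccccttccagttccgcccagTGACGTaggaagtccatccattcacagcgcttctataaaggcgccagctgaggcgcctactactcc

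*Egr2*, chr10:67537619-67537868, plus strand: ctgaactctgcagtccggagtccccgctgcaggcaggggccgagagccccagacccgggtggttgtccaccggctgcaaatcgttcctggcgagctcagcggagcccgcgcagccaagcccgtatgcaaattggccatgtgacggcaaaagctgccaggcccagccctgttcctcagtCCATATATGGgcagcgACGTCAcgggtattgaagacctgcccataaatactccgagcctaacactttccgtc

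*Nr4a1*, chr15:101266596-101266845, plus strand: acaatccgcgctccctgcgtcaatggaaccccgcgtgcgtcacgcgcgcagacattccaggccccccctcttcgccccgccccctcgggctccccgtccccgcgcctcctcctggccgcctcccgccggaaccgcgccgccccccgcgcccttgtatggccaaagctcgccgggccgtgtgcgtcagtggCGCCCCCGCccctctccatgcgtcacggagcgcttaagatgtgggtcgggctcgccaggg

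Both strands of the 250 bases before each start were searched, so a site farther upstream would not be seen. The capitals in *Fos* are the CRE core TGACGT, at position -66 from the start, which 6.47% of 32851 mouse promoters hold. The capitals in *Egr2* are a CArG box, at -72, which 1.47% of promoters hold, and a CRE core read on the other strand, at -56. Of the 5 *Egr2* starts, 4 had a CArG box. Some of their windows overlap and share the copy shown, so the 4 are not separate sites. The capitals in *Nr4a1* are the EGR site GCGNGGGCG on the other strand, at -60, and *Fosb* has this site at -50. It is found in 4.70% of promoters. The full CRE TGACGTCA (1.55% of promoters, and a CRE core wherever it occurs) and the AP-1 site TGANTCA (6.75%) were in 0 of the 10 windows, the E-box CACGTG (6.02%) was in 1 window, of *Egr2*, and the windows of *Jun* and *Junb* held no match. These are matches of letters, not bound sites.

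Most members have few exons. The median was 2.5 exons in the principal transcript against 9 over 12540 tested genes, and *Jun*, *Junb*, and *Ier2* have 1 exon. The pentamer ATTTA, the core of AU-rich elements, had a median density of 2.07 per kb of 3' UTR in the members and 1.33 over those genes. It was densest in *Nr4a1* (5.52 per kb), *Fos* (4.91), and *Junb* (4.12), and *Ier2* and *Arc* had 0. For *Fos*, *Nr4a1*, and *Jun*, the first window of 30 bases with the most ATTTA in the 3' UTR is shown on GRCm38. ATTTA is in capitals, and these genes are shown since they differ in how they changed below.

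*Fos*, chr12:85477090-85477119, plus strand: aacgtttttattgtgttttcaATTTATTTA

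*Nr4a1*, chr15:101274701-101274730, plus strand: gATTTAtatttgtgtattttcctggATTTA

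*Jun*, chr4:95049210-95049239, minus strand: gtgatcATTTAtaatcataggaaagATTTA

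Expression was measured as FPKM, fragments per kilobase of gene on a common library scale, as deposited. Depth was 15815013 to 24264097 fragments per library, and the members had from 25 fragments (*Egr2*) to 5769 (*Egr1*) in a library. The knockout labels were first checked by the targeted gene. *Per1* was at 3.23 to 4.96 FPKM in *Per1*-/- libraries and 4.76 to 6.33 in WT. *Per2* was at 1.87 to 3.30 FPKM in the libraries labelled *Per2*-/- and 0.817 to 1.97 in WT, which goes against the label, although the FPKM of a gene also counts transcript from outside a deleted part. The study checked the loss of each protein in these MEFs by western blotting, which is not analysed here. These libraries are called by their label throughout. The cells are labelled induced neurons on every day. Of 8 neuron markers, 6 passed the test as higher and 1 as lower on day 2, and 7 as higher on day 4 (*Map2*, 0.650 ± 0.361 FPKM on day 0 and 9.77 ± 1.10 on day 4, SD, n = 9), while of 8 fibroblast markers 6 were higher and 2 lower on day 4. Macrophage markers were present in every library as a sum, and none of the 12 was at 0 in all 9 libraries of a day. Their summed level was 50.8 to 517 FPKM on day 0, 104 to 614 on day 2, and 291 to 1110 on day 4. Of the 12, 8 were higher on day 2 and 11 on day 4. These marker counts stand against 22.2% of all tested genes higher and 19.9% lower on day 2. On day 4 the shares were 24.4% and 21.2%. In these bulk samples, fewer cells of a type and less RNA per cell cannot be told apart.

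Most immediate early genes fell from day 0 to day 4, and *Fosl1* and *Nr4a1* had the largest drops, both seen by day 2 with no further called change. *Junb*, *Egr1*, *Ier2*, and *Fosb* fell between day 2 and day 4. *Fos* and *Arc* did not pass the test on day 4, and *Jun* passed it with a change under the fold threshold. Genes count as called here when limma on log2(FPKM + 0.1), over 14932 genes, gave an adjusted p no higher than 0.05 and a change of 0.58 or more on the log2 scale, as the study set them. Averaged over genotypes, 6 of the 10 members were called on day 2 against day 0 (1 higher, 5 lower), where 42% of all tested genes were called (22.2% higher, 19.9% lower). With FPKM rescaled to a common sum, 1 was higher and 3 lower. On day 4 against day 0, 7 were called, all lower, against 45.6% of all genes (24.4% higher, 21.2% lower). On day 4 against day 2, 4 were called, all lower, against 9.97% of all genes (6.54% higher, 3.43% lower). The median log2 fold change of the members was -0.50, -1.30, and -0.65 in these 3 comparisons, and that of all tested genes was -0.01 in each. The 2 comparisons with day 0 share its libraries.

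**Figure D1:**
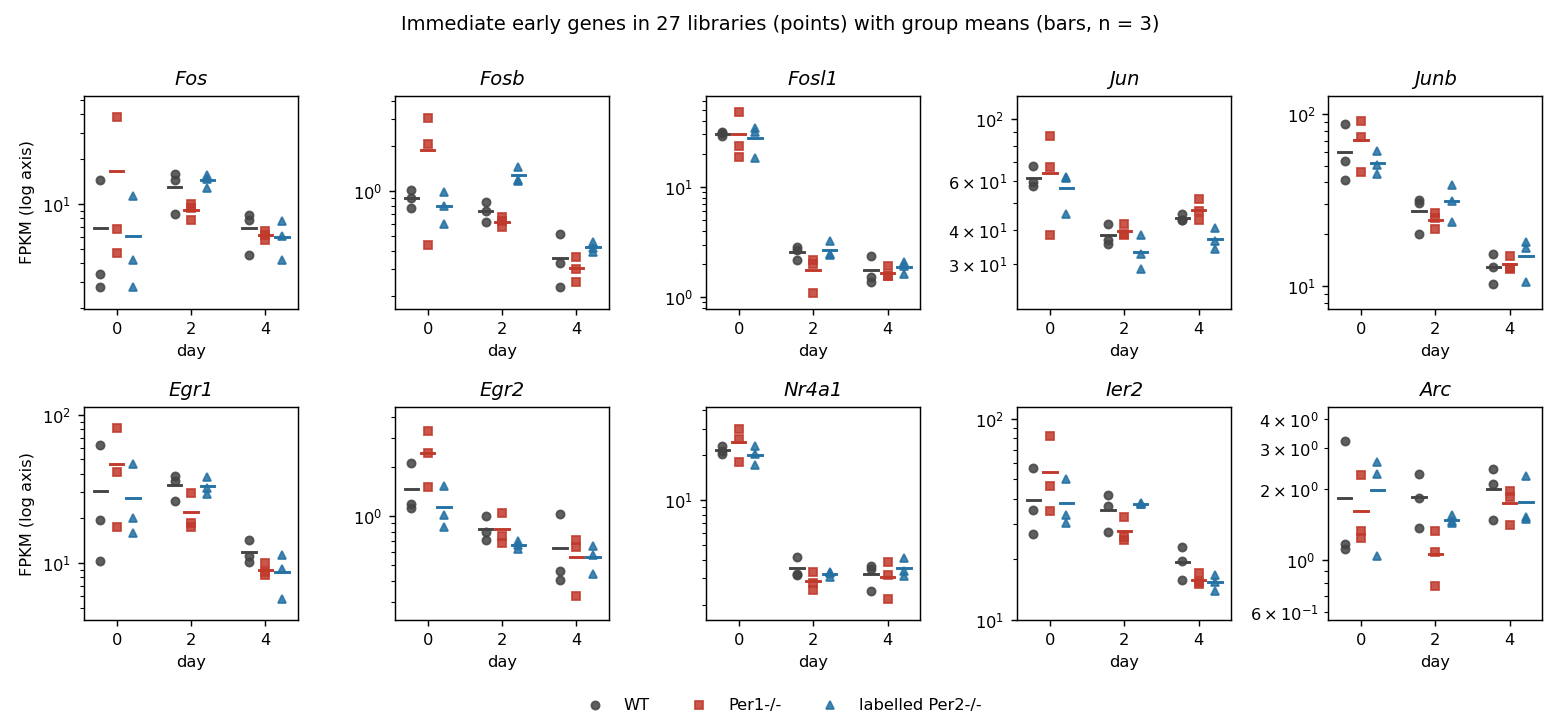
FPKM (log axis) of each of the 10 genes by day, with 1 point per library, 3 libraries per genotype and day, and bars at group means. *Fosl1* and *Nr4a1* drop between days 0 and 2, *Junb* and *Ier2* step down to day 4, and *Fos* and *Egr1* are widely spread on day 0 only.

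Among FOS family genes, which encode the AP-1 subunits that need a JUN partner, *Fosl1* (FRA-1, ENSMUSG00000024912, chr19:5447703-5455945) fell most. On day 0 it was at 31.1, 28.9, and 31.7 FPKM in WT, at 18.7, 48.3, and 23.7 in *Per1*-/-, and at 31.7, 18.4, and 34.2 under the *Per2*-/- label. On day 2 these values were 2.87, 2.17, and 2.68 in WT, 1.99, 2.20, and 1.09 in *Per1*-/-, and 3.25, 2.46, and 2.39 under the *Per2*-/- label. All 9 libraries of day 2 lay below all 9 of day 0, a separation that 21.5% of tested genes showed in this direction. The drop was 12.1-fold on day 2 (log2 fold change -3.59, SE 0.17, adjusted p = 8.41e-14) and 15.5-fold on day 4 (-3.95, SE 0.17, adjusted p = 1.56e-14), when the range was 1.37 to 2.38 FPKM and again below all of day 0, as for 22.7% of tested genes.

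*Fos* (ENSMUSG00000021250, chr12:85473890-85477273), the prototype of the family, behaved differently. On day 0 it was at 2.75, 14.5, and 3.39 FPKM in WT, at 4.68, 6.79, and 38.0 in *Per1*-/-, and at 11.3, 4.22, and 2.77 under the *Per2*-/- label. On day 2 it was at 15.9, 14.4, and 8.51 in WT, at 7.84, 9.37, and 9.96 in *Per1*-/-, and at 15.7, 12.8, and 14.8 under the *Per2*-/- label. On day 4 the 9 libraries were at 4.22 to 8.37 FPKM. The day 0 range enclosed both later days, so no separation was seen. *Fos* was called higher on day 2 (log2 fold change 0.83, SE 0.36, adjusted p = 0.0405), but this call depended on single libraries. It was lost when any 1 of 12 libraries was left out, with values of 0.64 to 0.83 and adjusted p of up to 0.102: WT day 0 replicates 1 and 3, *Per1*-/- day 0 replicates 1 and 2, the *Per2*-/- label on day 0, replicates 2 and 3, WT day 2 replicates 1 and 2, *Per1*-/- day 2 replicates 2 and 3, and the *Per2*-/- label on day 2, replicates 1 and 3. It was also lost with only the compared groups in the fit (adjusted p = 0.0787), with no filter on low genes (adjusted p = 0.0788), and without the libraries labelled *Per2*-/- (0.51, adjusted p = 0.337), and with the macrophage marker mean as a covariate it was 0.38 (adjusted p = 0.433). On day 4 it was -0.08 from day 0 (SE 0.36, adjusted p = 0.844) and -0.91 from day 2 (adjusted p = 0.059, not called). The change from day 2 was called in 6 alternatives. They were the fit of the compared groups alone, which leaves out day 0 (-0.91, adjusted p = 0.0003), the macrophage covariate (-1.39, adjusted p = 0.0252), voom on recovered fragments (adjusted p = 0.0348) or with library totals (adjusted p = 0.030), a common sum (adjusted p = 0.0336), and the replicate block (adjusted p = 0.0295).

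*Fosb* (ENSMUSG00000003545, chr7:19302696-19310051), whose product accumulates in stimulated neurons, was low throughout. It ranged from 0.439 to 3.09 FPKM on day 0 (median 0.894), from 0.576 to 1.46 on day 2 (median 0.741), and from 0.228 to 0.514 on day 4 (median 0.366). Day 4 lay wholly below day 2, as 3.13% of tested genes did. The fall was called from day 2 to day 4 (log2 fold change -1.05, SE 0.23, adjusted p = 0.00199) and from day 0 to day 4 (-1.29, adjusted p = 3.72e-05), and not from day 0 to day 2 (-0.24, adjusted p = 0.362), although with the macrophage marker mean as a covariate the last value was -0.66 and called (adjusted p = 0.0238). The call from day 2 to day 4 was lost without the libraries labelled *Per2*-/- (-0.88, adjusted p = 0.0809) and with a pseudocount of 1 (-0.45).

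The 2 JUN genes encode the AP-1 subunits that can also pair with each other, JUN as a strong activator and JUNB as a weaker one. *Junb* (ENSMUSG00000052837, chr8:84974484-84978718) was at 52.9, 86.9, and 41.4 FPKM in WT, at 45.9, 73.4, and 91.2 in *Per1*-/-, and at 61.1, 44.6, and 50.6 under the *Per2*-/- label on day 0. It ranged from 20.2 to 38.7 FPKM on day 2 and from 10.3 to 17.9 on day 4. The 3 days did not overlap at all. Day 2 lay below day 0, as for 21.5% of tested genes, and day 4 below day 2, as for 3.13%. *Junb* fell 2.16-fold by day 2 (log2 fold change -1.11, SE 0.16, adjusted p = 1.80e-06), and 1.99-fold more from day 2 to day 4 (-0.99, SE 0.16, adjusted p = 0.000109).

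*Jun* (ENSMUSG00000052684, chr4:95049034-95052222) had the highest mean level of the members, 46.9 FPKM over all libraries, and the smallest change among those called on day 2. It ranged from 38.5 to 87.1 FPKM on day 0, from 29.0 to 42.1 on day 2, and from 34.1 to 51.5 on day 4, so that the lowest library of day 0, *Per1*-/- replicate 1, lay within the range of both later days. It fell by day 2 (log2 fold change -0.69, SE 0.11, adjusted p = 7.59e-06). On day 4 it was at -0.48 (adjusted p = 0.000424), under the fold threshold, and it was called without that library (-0.59) and with the macrophage covariate (-0.84, adjusted p = 0.000421). When FPKM were rescaled to a common sum, the day 2 value was -0.30, and with voom on library totals it was -0.41, neither of them called.

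*Egr1* (ENSMUSG00000038418, chr18:34859823-34864984), which binds GC-rich promoters, showed no called change up to day 2 and was lower on day 4. On day 0 it was at 10.3, 62.2, and 19.5 FPKM in WT, at 17.6, 41.1, and 80.8 in *Per1*-/-, and at 46.6, 20.0, and 16.1 under the *Per2*-/- label. On day 2 it ranged from 17.4 to 38.4 FPKM (median 29.9), and on day 4 from 5.75 to 14.4 (median 10.1). Day 4 lay wholly below day 2, as for 3.13% of tested genes, but 1 WT library of day 0 overlapped day 4. The change was 0.02 on day 2 (SE 0.30, adjusted p = 0.955), with a 95% interval of -0.61 to 0.65, and it fell 2.94-fold from day 2 to day 4 (log2 fold change -1.56, SE 0.30, adjusted p = 0.000611). *Egr2* (ENSMUSG00000037868, chr10:67535475-67542188), best known for its role in Schwann cells and the hindbrain, was at 0.859 to 3.30 FPKM on day 0, 0.631 to 1.05 on day 2, and 0.323 to 1.03 on day 4. It fell by day 2 (-0.91, SE 0.19, adjusted p = 0.000218) and not further beyond the test (-0.40 from day 2 to day 4, adjusted p = 0.128). The day 2 call of *Egr2* was lost with a pseudocount of 1 (-0.54) and with a common sum (-0.56).

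*Nr4a1* (NUR77, ENSMUSG00000023034, chr15:101254269-101274795) was the most uniform of the members on day 0. It was at 21.2, 23.0, and 20.3 FPKM in WT, at 18.1, 25.6, and 30.03 in *Per1*-/-, and at 22.9, 17.1, and 20.2 under the *Per2*-/- label. On day 2 it was at 3.23, 4.17, and 3.17 in WT, at 3.34, 2.78, and 2.51 in *Per1*-/-, and at 3.08, 3.33, and 3.27 under the *Per2*-/- label. Every later library lay below every day 0 library, a separation that 21.5% of tested genes showed on day 2 and 22.7% on day 4. The fall was 6.65-fold on day 2 (log2 fold change -2.73, SE 0.11, adjusted p = 1.09e-14) and 6.58-fold on day 4 (-2.72, SE 0.11, adjusted p = 9.86e-15), with 0.02 between days 2 and 4 (95% interval -0.22 to 0.25).

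*Ier2* (ENSMUSG00000053560, chr8:84661331-84662852), which encodes a small nuclear protein, had its called fall after day 2. It ranged from 26.9 to 81.8 FPKM on day 0 (median 35.1), from 25.01 to 41.6 on day 2 (median 37.0), and from 13.9 to 23.0 on day 4 (median 15.8). Day 4 lay below all libraries of day 0, as for 22.7% of tested genes, and of day 2, as for 3.13%. The change on day 2 was not called (log2 fold change -0.32, SE 0.15, adjusted p = 0.0636), and *Ier2* fell 1.97-fold from day 2 to day 4 (-0.98, SE 0.15, adjusted p = 8.40e-05). *Arc* (ENSMUSG00000022602, chr15:74669083-74672570), a neuronal gene whose product acts at synapses, was at 1.04 to 3.21 FPKM on day 0, 0.773 to 2.33 on day 2, and 1.41 to 2.43 on day 4. The days overlapped, and none of its changes was called (log2 fold change -0.24, 0.10, and 0.34, with adjusted p of 0.305, 0.658, and 0.231).

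**Figure D2:**
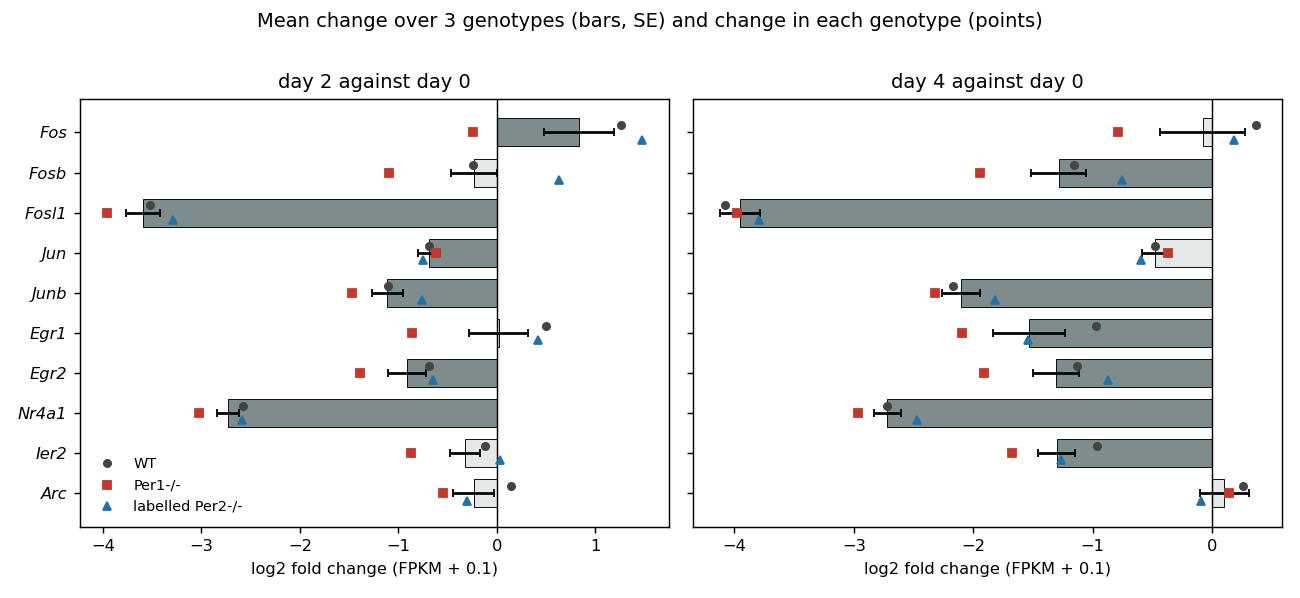
Log2 fold change of each gene from day 0, as the mean over 3 genotypes (bars with SE, dark where called) and in each genotype (points). *Fosl1* lies between -4.08 and -3.29 and *Nr4a1* between -3.03 and -2.47 in the 3 genotypes, and *Fos* is the only gene called higher, on day 2.

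Within genotypes, *Fosl1*, *Junb*, and *Nr4a1* were called lower on both days in each of the 3, except that *Junb* on day 2 under the *Per2*-/- label (-0.76) lost its call without replicate 1 of day 0 (-0.64) or replicate 2 of day 2 (-0.58), with a common sum (-0.43, adjusted p = 0.178), and with voom on library totals (-0.50). In WT, 4 members were called on day 2 and 6 on day 4, where 40.5% and 43.8% of all genes were called. In *Per1*-/-, 7 were called on each day, with 39.6% and 43% of all genes. Under the *Per2*-/- label, 5 were called on day 2, with *Fos* higher (1.48, adjusted p = 0.0481), and 7 on day 4, with 35.5% and 40.3% of all genes. These counts were 3 without replicate 2 of day 2, and 4 without replicate 1 of day 0 or replicate 3 of day 4. The *Fos* call was lost in 5 of the 6 fits that left out 1 of these libraries (all but replicate 1 of day 0), with adjusted p of up to 0.207, and also with no filter on low genes (adjusted p = 0.0998) and with the macrophage covariate (1.32, adjusted p = 0.0636). In *Per1*-/-, *Fosb* and *Ier2* were called lower on day 2 (-1.10 and -0.88). Without replicate 3 of day 0, which had the highest *Fos*, *Fosb*, *Egr1*, *Junb*, and *Ier2* of all libraries, these values were -0.58 and -0.53 and neither was called, and the count for *Per1*-/- on day 2 was 4. *Jun* (-0.62 with all libraries) was then at -0.55, under the fold threshold. It was also not called without replicate 2 of day 0 (-0.365, adjusted p = 0.0828) or with only the groups compared (adjusted p = 0.114). The call of *Fosb* was also lost without replicate 2 of day 0 (-0.85) or replicate 2 of day 2 (-1.04).

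No member was called between genotypes on any day, or in a test of whether genotypes changed differently from day 0, in limma and also with voom weights on recovered fragments. Of all genes, 0.0134%, 0.0067%, and 0.0268% were called for *Per1*-/- against WT on days 0, 2, and 4, 0.0201%, 0.0737%, and 0.556% against the *Per2*-/- label, and 0.0067%, 0.0268%, and 0.0067% for the *Per2*-/- label against WT, with 0% in the tests of different change. The study used DESeq2 with the same thresholds. It reported more genes than were called here, differing between *Per1*-/- cells and both other genotypes on each day. The lack of called members is therefore no evidence that the genotypes were alike. An unadjusted p under 0.05 was seen in 1 of 10 members for *Per1*-/- against WT on day 2 (*Arc*, -0.74, unadjusted p = 0.0498), where 410 of all 14932 genes had one, and in 0 on days 0 and 4. Against the libraries labelled *Per2*-/-, it was seen for *Egr2* on day 0 (1.00, unadjusted p = 0.00671) and for *Fosb* and *Fosl1* on day 2 (-0.91 and -0.64), where 892 and 1228 of the 14932 genes had one. It was seen in 0 members for the *Per2*-/- label against WT. *Fosb* on day 2 was at 1.46, 1.19, and 1.17 FPKM under the *Per2*-/- label, above 0.847, 0.741, and 0.627 in WT and 0.666, 0.576, and 0.636 in *Per1*-/-. A separation from WT in this direction was seen in 4.29% of genes. On the same day *Fos*, *Fosb*, *Fosl1*, *Ier2*, and *Arc* lay lower in all *Per1*-/- libraries than in all those labelled *Per2*-/-, as did 7.5% of genes. The change of *Fosb* from day 0 to day 2 differed by -1.73 between *Per1*-/- and the *Per2*-/- label (SE 0.57, unadjusted p = 0.00646, adjusted p = 0.987). The differences in change of *Ier2* to day 2 (-0.91) and *Egr2* to day 4 (-1.04) between these groups had unadjusted p = 0.0247 and 0.0381, and 670 and 895 of the 14932 genes were under 0.05 in these tests. Without *Per1*-/- day 0 replicate 1, the *Fosb* difference was -2.49 and called (adjusted p = 0.00888), and so was *Fosb* on day 0 between these groups (1.58, adjusted p = 0.019). The intervals were wide where day 0 was spread, and for *Fos* on day 0 the difference of *Per1*-/- from WT was 1.04, with a 95% interval of -0.25 to 2.33. Group order showed the same limit. The *Per1*-/- group of day 0 had the highest mean for 8 of the 10 genes, but at least 6 of the 8 neighbouring pairs of groups in the order of each gene had overlapping libraries.

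The spread between replicates was itself uneven. The SD within groups on the log2 scale was 1.32 for *Fos* and 1.09 for *Egr1* on day 0, larger than in 97.4% and 96.2% of tested genes, and 0.31 and 0.32 on day 2. It was 0.81, 0.67, and 0.53 for *Fosb*, *Arc*, and *Ier2* on day 0. The median of all tested genes was 0.23 on day 0 and 0.17 on days 2 and 4. The highest and lowest day 0 libraries differed 13.8-fold in *Fos* and 7.84-fold in *Egr1*, with 112 to 1320 and 879 to 5769 fragments. *Nr4a1* had an SD of 0.25 on day 0, near the median.

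**Figure D3:**
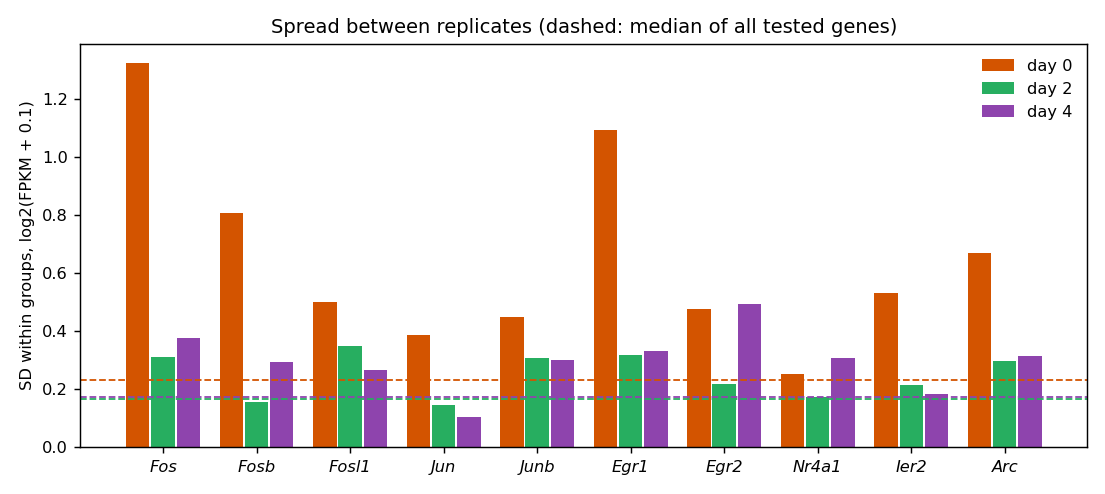
SD of log2(FPKM + 0.1) within groups for each gene on each day (bars), with the median of all tested genes on each day (dashed lines). All genes but *Egr2* and *Nr4a1* have their tallest bar on day 0, and the median of all tested genes is also highest on that day.

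Libraries high in *Fos* on day 0 were high in *Egr1* and *Ier2* as well. The 4 highest were *Per1*-/- replicate 3, WT replicate 2, *Per2*-/- label replicate 1, and *Per1*-/- replicate 2, in this order for all 3 genes. Over the 9 libraries of day 0, log2 values of *Fos* and *Egr1* had Pearson's r of 0.94 and Spearman's rho of 0.95 (exact permutation, adjusted p = 0.000645 and 0.00635 over 36 relations, raw p = 3.58e-05 and 0.000353), and r was 0.92 without the 2 libraries farthest from the median. For *Ier2*, r was 0.98 and rho 0.95 (exact permutation, adjusted p = 0.000645 and 0.00635), and 0.95 without those 2. *Junb* gave r of 0.85 (exact permutation, adjusted p = 0.0375) but rho of 0.72 (adjusted p = 0.133 by exact permutation), and 0.60 without those 2. *Fosl1* gave r of -0.09 and rho of -0.23, and *Jun* 0.37 and 0.52, with adjusted p of at least 0.324 by exact permutation. With genotype means removed, r was 0.94 for *Egr1* and 0.98 for *Ier2*. On day 2, r was 0.87 for *Ier2* and 0.80 for *Egr1* (exact permutation, adjusted p = 0.0375 and 0.0476), but rho was 0.68 and 0.73 (exact permutation, adjusted p = 0.151 and 0.133). *Junb* passed by both measures on day 2, with r of 0.85 and rho of 0.90 (exact permutation, adjusted p = 0.0375 and 0.0243), and r was 0.71 without the 2 farthest libraries and 0.87 with genotype means removed. On day 4, r was 0.76 and 0.13 and rho 0.82 and 0.18, with adjusted p of 0.0699 or higher by exact permutation. With *Fos* on day 0, the macrophage marker mean gave r of 0.49, or 0.17 without the 2 farthest libraries, the heat shock gene mean 0.27, and the depth of the library -0.41. Their rho was 0.20, 0.20, and -0.28, and the lowest adjusted p of these was 0.361 by exact permutation. The library with the highest *Fos*, *Per1*-/- replicate 3, also had the highest summed macrophage markers of day 0, 517 FPKM against 50.8 to 245 in the others, and the part of that in its level was not tested.

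**Figure D4:**
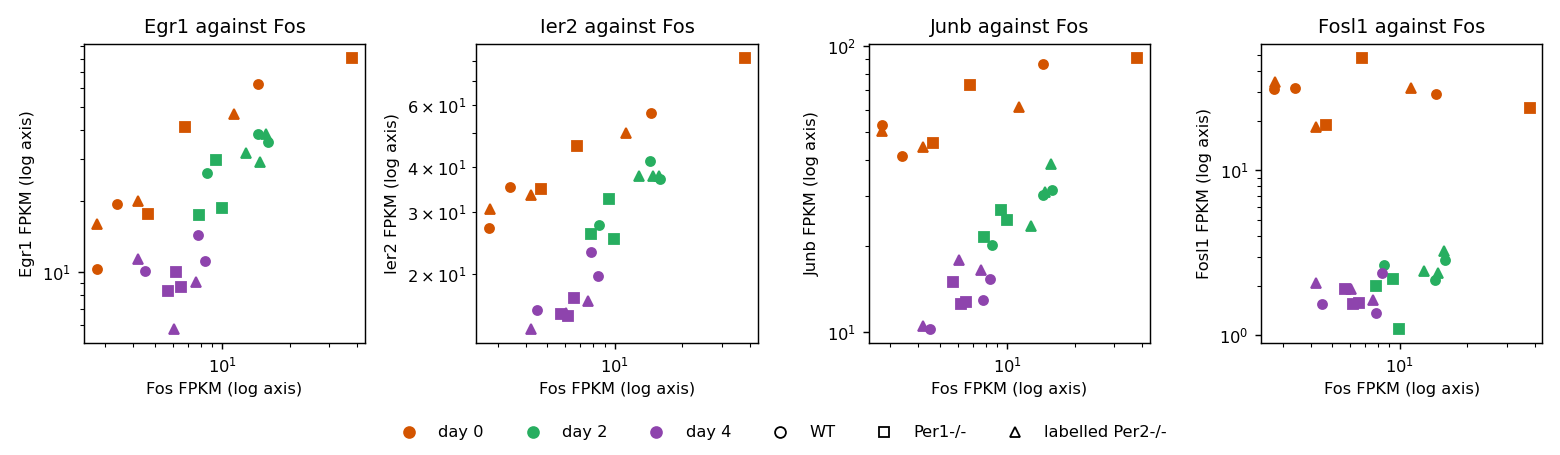
FPKM of *Egr1*, *Ier2*, *Junb*, and *Fosl1* against *Fos* (both axes log), 1 point per library, with days by colour and genotypes by shape. Within day 0, *Egr1* and *Ier2* rise with *Fos*, while *Fosl1* shows no such order.

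Over all 27 libraries and with group means removed, the closest pairs of members were *Fos* and *Ier2* (r = 0.94), *Egr1* and *Ier2* (0.89), *Fos* and *Egr1* (0.84), and *Fos* and *Junb* (0.77), and *Fos* and *Fosl1* were at -0.07. These are descriptions over libraries that share a table and its scaling. The tested gene outside the 10 whose log2 values were most like the members' mean over 27 libraries was *Zfp36* (r = 0.92), which encodes a protein that binds AU-rich elements, followed by *Hbs1l*, *Slc25a39*, *Tsta3*, *Ccne1*, *Elk3*, *Vdac1*, and *Lgr6* (r of 0.88 to 0.89). With group means removed they were *Bmp8b*, *Ano1*, *Lgr6*, *Ergic1*, *Fam3c*, *Dsp*, *Stxbp6*, and *Itga6* (r of 0.80 to 0.82).

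Other genes of the pathway were mostly lower on days 2 and 4 among targets, feedback inhibitors, and other immediate early genes, and less one-sided among upstream genes. These counts stand against the 42% and 45.6% of all tested genes called on days 2 and 4, with 19.9% and 21.2% lower. Of 30 tested other immediate early genes, 22 were lower and 2 higher on day 2, and 22 lower and 3 higher on day 4. *Ptgs2*, the inducible prostaglandin synthase, went from 109.7 ± 34.1 FPKM on day 0 to 2.45 ± 1.08 on day 2 and 0.674 ± 0.184 on day 4 (SD, n = 9; log2 fold change -5.47 and -7.11, adjusted p = 1.05e-14 and 1.92e-16). *Ctgf*, a matrix-associated growth factor, was 11.7-fold lower on day 2, and the EGF receptor ligand *Hbegf* 8.29-fold. *Klf10*, a TGF-beta response factor, was not called (0.55 and 0.14).

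Of 10 AP-1 relatives, 3 were lower and 0 higher on both days. They were the small MAF genes *Maff* (-2.49 on day 2) and *Mafk* (-1.23), which lack an activation domain, and *Fosl2* (FRA-2, -1.79). Under a rescaling to a common sum, 3 were lower and 1 higher on day 2, and 3 lower and 3 higher on day 4. *Jund* was at 39.9, 35.9, and 40.3 FPKM and was not called. Of 33 genes for the kinases and factors that act on these promoters, 8 were lower and 3 higher on day 2, and 6 lower and 5 higher on day 4, among them *Hras* (-1.15 and -1.18) and the SRF partner *Elk3* (-0.84 and -1.20) lower and *Mef2c* (1.46 and 1.66) higher. Under a rescaling to a common sum, 2 were lower and 11 higher on day 2, and 3 lower and 10 higher on day 4, so that the direction of this list depends on the scaling. Calls in either direction among the AP-1 relatives and the upstream genes were no more frequent than among all genes on either day, and are no result about these lists.

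Of 19 feedback inhibitors, 12 were lower on day 2 and 13 on day 4, with 0 higher, and with a common sum 8 and 11 were lower and 1 higher. *Dusp5*, a phosphatase of ERK, fell from 26.5 ± 11.2 to 1.98 ± 0.516 FPKM on day 2 (SD, n = 9; log2 fold change -3.58, adjusted p = 1.13e-11), and *Dusp1* and the EGF receptor inhibitor *Errfi1* fell 4.33-fold and 4.72-fold. Of 14 genes known as targets of AP-1 or EGR1, 12 were lower and 1 higher on each day. *Plaur*, the urokinase receptor, fell from 41.0 ± 13.1 to 2.44 ± 0.534 FPKM on day 2 (SD, n = 9; 15.7-fold, adjusted p = 2.58e-14). The 1 that rose, *Mmp9*, a protease of macrophages and other cells, went from 0.796 ± 0.794 to 1.89 ± 1.29 and 15.5 ± 15.0 FPKM (SD, n = 9). Its SD was thus close to its mean on days 0 and 4. Of 8 neuronal activity genes, 6 were lower and 1 higher on day 2, with *Bdnf* and *Npas4* at -2.24 and -2.54. Of 10 heat shock genes, 8 were lower and 0 higher on each day, with *Hspb1* at -2.83 on day 2. The medians on day 2 were -1.10 for other immediate early genes, -0.47 for AP-1 relatives, -0.16 for the upstream genes, -0.87 for feedback inhibitors, -1.96 for target genes, -1.93 for neuronal activity genes, and -1.23 for heat shock genes.

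**Figure D5:**
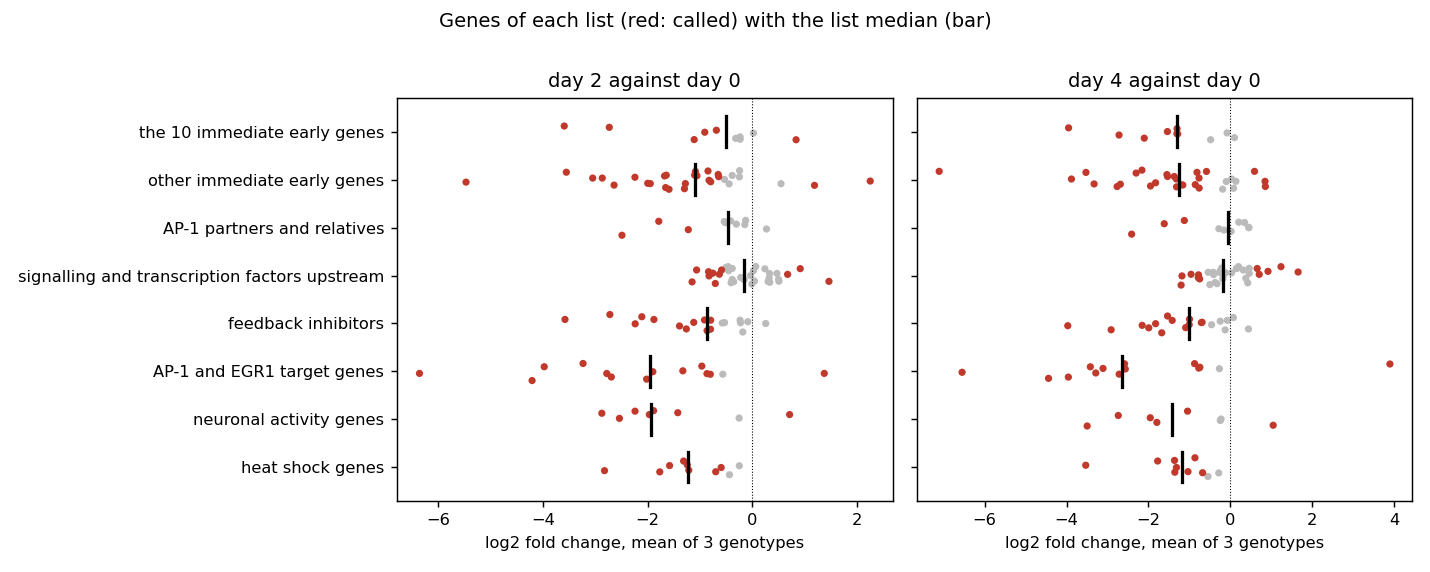
Log2 fold change from day 0, averaged over 3 genotypes, of every tested gene in each list (points, red where called) with the list's median (bar). Target genes, neuronal activity genes, and heat shock genes lie furthest to the left on day 2, and the upstream genes lie around 0.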

How the data were processed

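Bulk RNA-seq of 27 libraries was used, grouped by genotype and day as labelled. The deposited values are FPKM. According to the methods, the authors aligned clean paired-end reads from nondirectional poly-A libraries to GRCm38 (mm10) with HISAT2 2.0.5, counted fragments on Ensembl 94 genes with featureCounts 1.5.0-p3, and computed FPKM from gene length and counts. Without strand, reads of overlapping genes cannot be told apart. The FPKM gave whole fragments for 100% of values (tolerance 0.001) once a scaling factor per library was solved. This factor was 0.865 to 0.925 times the fragments on day 0 and 1.03 to 1.10 times on days 2 and 4, so the deposited scale is not one of equal totals.

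Genes averaging 0.5 FPKM or more were tested with limma 3.58.1 (trend) in R 4.3.3 on log2(FPKM + 0.1) in 9 groups, with Benjamini-Hochberg adjustment over 14932 genes in each comparison. A fold change on this scale understates the change of low genes. All 10 members passed the filter. Correlations used exact permutation in numpy 2.4.6. Scripts were tested on simulated data. Each library is a labelled biological replicate, and the sources used here do not say which shared a dish, so p-values measure the spread between these libraries. The members and the gene lists were chosen with earlier results of these data known. All members were named, with up to 4 called genes and 2 others per list by size of change, and the 8 tested genes most like the members' mean. Some genes that this rule names are not reported here. Alternatives were 2 other pseudocounts, 2 other filters, a fit of the compared groups alone, new size factors, a common sum, voom on recovered fragments, a macrophage covariate, no minimum fold, libraries left out, and a replicate block. Voom with library totals was added after seeing the data. Promoters are from RefSeq, and 3' UTRs from the GENCODE M21 annotation.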

Additional observations from a re-analysis of the deposited data

How the results depend on the processing

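Of 1530 values of the members under alternatives, 1412 kept direction and side of the threshold. *Fosl1*, *Junb*, and *Nr4a1* stayed called on days 2 and 4 under each alternative of the comparison averaged over genotypes. The count of members called was 4 to 6 on day 2, 6 to 8 on day 4, and 3 to 5 from day 2 to day 4, and with 1 library left out it was 5 to 6, 7 to 8, and 4. For *Per1*-/- on day 2 it was 4 with only the groups compared, with a common sum, and with voom on library totals, and 4 to 8 with 1 library left out. Under the *Per2*-/- label it was 3 with voom on library totals on day 2, and with 1 library left out it was 3 to 4 on day 2 and 4 to 7 on day 4, with 4 without replicate 1 of day 0 or replicate 3 of day 4. With 1 library left out, *Per1*-/- against the *Per2*-/- label had 0 to 1 members called, and so did their difference in change from day 0; the 1 was *Fosb*, without *Per1*-/- day 0 replicate 1. A common sum moved the median of all genes by 0.36 on day 2, 0.29 on day 4, and -0.09 between them, and the called genes that were higher from 3308 of 6275 to 5610 of 6971 on day 2 and from 3644 of 6805 to 5203 of 7019 on day 4. With a pseudocount of 1, 895 genes were called from day 2 to day 4, against 1488. The values that changed sign were not called. On day 2 they were *Fosb* (0.11 with a common sum, 0.0792 with library totals), *Ier2* (0.0652 with a common sum), *Arc* (0.13 and 0.0408), and *Egr1* (-0.16 with the macrophage covariate, -0.18 without the *Per2*-/- label, -0.17 to 0.26 with 1 library left out). On day 4 they were *Fos* (0.22 with a common sum, 0.21 with library totals, -0.28 to 0.22 with 1 library left out) and *Arc* (-0.00817 with the macrophage covariate, -0.027 to 0.26 with 1 library left out). Between days 2 and 4 it was *Nr4a1* (-0.0622 with a common sum, -0.0941 with the macrophage covariate, -0.038 without the *Per2*-/- label, -0.0422 to 0.0871 with 1 library left out). Causes of these shifts were not tested. Labels share replicate numbers but do not say that a number marks a shared culture. Over 27 same-numbered pairs of days within a genotype, deviations correlated at -0.02 to 0.29 (median 0.13), with 14 over 0.1. Over 54 such pairs with different numbers, they correlated at -0.21 to 0.09 (median -0.06), with 0 over 0.1. Of 27 libraries, 25 correlated best with their own number out of 3, a hint from the data that the main fit did not use. With the replicate block, *Fos* from day 2 to day 4 was -0.91 with adjusted p = 0.0295 and the members called rose from 4 to 5, while in WT on day 2 they rose from 4 to 6. The leave-out fits assume that a group with fewer libraries varies like the others.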
